A study of Arabidopsis thaliana with 19 samples.

Results

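Freshly harvested, dormant seeds of NILDOG6 were compared with dormant seeds of Landsberg erecta (Ler), both imbibed in water for 24 h before RNA was extracted from whole seeds. NILDOG6 is a near isogenic line, in which an introgressed fragment of chromosome 3 from the accession Kas-2 replaces that of Ler in an otherwise Ler background, and it is 1 line for its locus. The line spans the DELAY OF GERMINATION 6 (DOG6) locus and is known as more dormant than Ler. The comparison rests on 3 NILDOG6 arrays and 5 Ler arrays of the 19 arrays of dormant seeds, with all 21313 genes of the table. The other 11 arrays held NILDOG1 (5 arrays), NILDOG2 (3) and NILDOG3 (3), which carry Cvi fragments at other DOG loci in the same background and serve here to show where NILDOG6 differs from its sister lines. Each replicate was a pool of plants per the labels, and the labels describe the RNA both as from imbibed seeds and as from dry seeds; the imbibed state in the titles was used. Values are log2 levels from the ATH1 GeneChip, and each difference is NILDOG6 minus Ler on that scale, so that 1 stands for a 2-fold higher level. They are array signals, and whether sequence differences between Kas-2 and Ler alter them for genes of the introgressed fragment was not tested.

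Dormancy of an Arabidopsis seed is set by the balance of abscisic acid, which holds the embryo in check through a kinase, phosphatase and transcription factor pathway, and gibberellin, which releases growth by removing the DELLA repressors. A seed on its way to germination loosens the cell walls of embryo and endosperm with expansins and xyloglucan endotransglucosylase/hydrolases (XTHs) and loses the late embryogenesis abundant (LEA) transcripts of the dry seed. The DOG6 region holds ANAC060, a membrane-tethered NAC transcription factor that lowers the response to abscisic acid, which was not analysed here. Of the other NAC factors of its clade, NTL8 had 4.18, 3.29 and 3.05 in NILDOG6 and 4.09, 3.49, 3.45, 3.83 and 3.42 in Ler, and ANAC089 had 9.47, 9.60 and 9.51 against 9.17, 9.65, 9.36, 9.44 and 9.55. Neither passed the test in any comparison with Ler.

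The seed markers were high on all arrays of both groups. The 8 seed markers (cruciferins, oleosins, EM proteins and HSFA9) summed to between 16.47 and 16.61 on the log2 scale in NILDOG6 and between 16.42 and 16.57 in Ler, and the 3 endosperm markers to 13.23 to 13.68 and 12.9 to 13.53. The 5 seed coat markers summed to 6.46 to 6.65 in NILDOG6 and 6.37 to 6.65 in Ler, and the 2 measured of 5 leaf and silique wall markers to 4.87 to 5.17 and 4.81 to 5.41. Of all these markers EM1 alone passed the test, and only without NILDOG6 replicate 1. The array labelled NILDOG6 replicate 1 stood apart from its group: its median correlation across genes was 0.979 with the other NILDOG6 arrays and 0.988 with the Ler arrays. In earlier work on these data its values on chromosome 3 resembled Ler. Fits were therefore run both with all 3 NILDOG6 arrays and without replicate 1, and some values are printed for 1 of them alone. The choice to leave out replicate 1 used its values, and the results without it are descriptions of 2 arrays that share a pattern.

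With all 3 arrays, 502 genes (2.36%) differed between NILDOG6 and Ler in limma at a Benjamini-Hochberg adjusted p under 0.05, 203 of them higher in NILDOG6 (0.952%) and 299 lower (1.4%). Without replicate 1 the number was 1789 (8.39%), with 650 higher (3.05%) and 1139 lower (5.34%). Both comparisons called 476 genes, all of them in the same direction. Of the genes called with 3 arrays, 399 had all NILDOG6 arrays on the same side of all Ler arrays, 179 above and 220 below, where 8.09% of all genes were so placed, 4.42% above and 3.67% below. Differences of more than 1 were mostly falls: without replicate 1, 419 genes were lower and 73 higher by more than 1, and with 3 arrays 91 and 28. Among calls of any size, the preponderance of falls depended on the scaling, and counts of differences of more than 1 under other scalings are not given. Centring each array on its median gave 566 higher and 250 lower genes with 3 arrays and 1588 higher and 773 lower without replicate 1, and quantile normalization gave 308 and 248, and 892 and 873. Centring moved the median difference over all genes to 0.118 with 3 arrays and to 0.151 without replicate 1, against 0.010 and 0.011 as deposited. The labels describe plants grown in a randomized block design without saying that a replicate number marks a block; with the number as a block, 1231 genes were called with 3 arrays and 1919 without replicate 1. At an adjusted p under 0.01, 43 genes (0.202%) were called with 3 arrays and 516 (2.42%) without replicate 1.

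Replicate 1 held few of the differences that the other NILDOG6 arrays shared. On a scale of 0 at the Ler mean to 1 at the mean of NILDOG6 replicates 2 and 3, its median position over the 1789 genes was 0.209, with quartiles of -0.026 and 0.486. It lay nearer to the Ler mean at 1361 of these genes and nearer to its own group at 428. Among genes that differed by more than 1, the median position was 0.096 for the 132 genes on chromosome 3 and 0.140 for the 359 on the other chromosomes. These genes were called from replicates 2 and 3, so the positions are a description and no test.

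**Figure D1:**
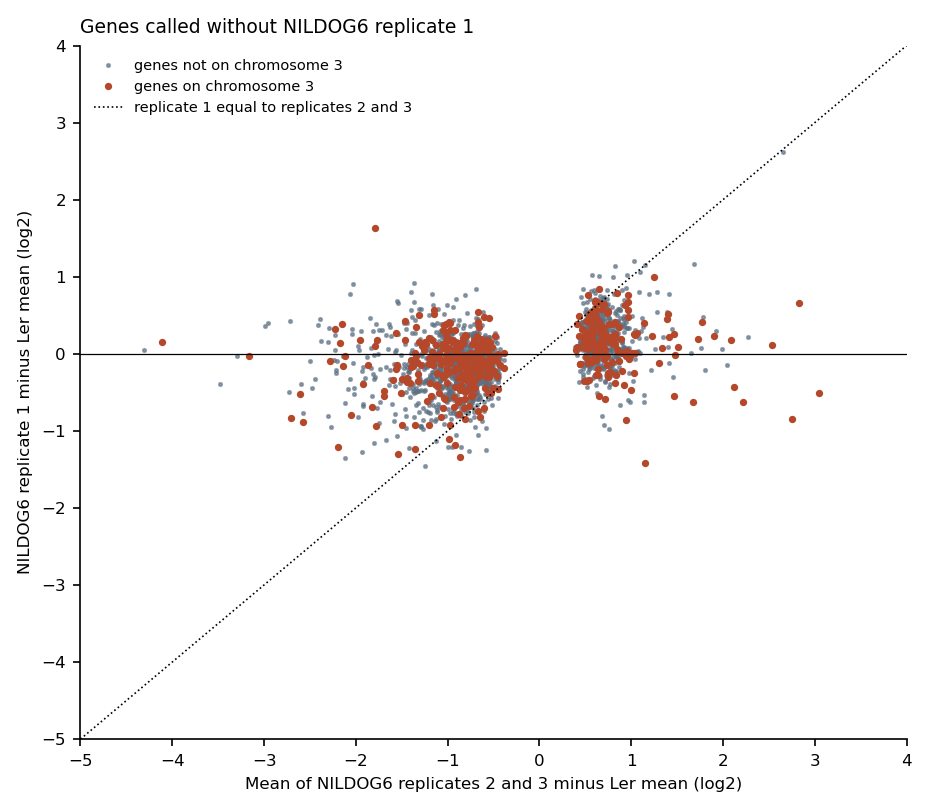
Each point is a gene called between NILDOG6 without replicate 1 and Ler (1789 genes), with the mean of NILDOG6 replicates 2 and 3 minus the Ler mean on the horizontal axis and NILDOG6 replicate 1 minus the Ler mean on the vertical axis, both log2, and genes of chromosome 3 in red. Replicate 1 lies nearer to the Ler mean at 1361 of the genes and nearer to the other NILDOG6 arrays at 428.

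Of the 10 largest rises in NILDOG6, 7 lie on chromosome 3. PHT4;3, a member of a phosphate transporter family, had 4.01, 7.27 and 7.84 in NILDOG6 replicates 1 to 3, against 4.33, 4.81, 4.45, 4.53 and 4.45 in Ler. Replicates 2 and 3 were far above every Ler array and replicate 1 below them all. The difference was 3.05 ± 0.27 (SE) without replicate 1 (limma adjusted p = 2.42e-06) and 1.86 ± 0.53 with it (0.0643). ZIFL2, a transporter of the zinc-induced facilitator-like family, had 3.95, 7.36 and 7.74 in NILDOG6, against 4.98, 4.53, 4.14, 5.28 and 5.06 in Ler, a difference of 2.75 ± 0.32 without replicate 1 (limma adjusted p = 6.72e-05). Its pattern was that of PHT4;3, with replicate 1 below the Ler arrays. With 3 arrays the ZIFL2 difference of 1.55 did not pass (limma adjusted p = 0.134). AT3G46430 had 7.62, 9.98 and 9.59 in NILDOG6 and 7.05, 5.37, 7.18, 7.51 and 7.68 in Ler, and was called both without replicate 1 (2.83 ± 0.46) and with it (2.1 ± 0.49). The call with 3 arrays was lost without Ler replicate 1 (2.13) or Ler replicate 3 (2.16). AT3G21600, CYP77A5P, AT3G25160 and the P450 gene CYP705A23, all of chromosome 3, rose by 2.53, 2.21, 2.12 and 2.08 without replicate 1. With 3 arrays CYP77A5P and AT3G25160 did not pass (limma adjusted p = 0.113 and 0.144), and AT3G21600 and CYP705A23 did. Those calls were lost without Ler replicate 1 (1.80 and 1.42), and that of AT3G21600 also without Ler replicate 3 (1.69).

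On the other chromosomes, AT1G31550 had 2.76, 4.80 and 4.82 in NILDOG6 and 2.54, 2.54, 2.51, 2.42 and 2.67 in Ler. Its Ler levels lie near the bottom of the array's range, replicate 1 lay just above them, and it was called both without replicate 1 (2.27 ± 0.14, limma adjusted p = 2.89e-08) and with it (1.59 ± 0.30, adjusted p = 0.0127). AT5G49640 was the exception to the pattern of replicate 1: its levels were 8.53, 8.60 and 8.52 in NILDOG6, against 5.09, 4.90, 4.86, 7.17 and 7.54 in Ler. All 3 NILDOG6 arrays were alike and above Ler, while Ler replicates 1 to 3 were low and Ler replicates 4 and 5 high. The cause of this split was not tested. The difference was 2.64 ± 0.53 with 3 arrays (limma adjusted p = 0.0173), and the call was lost without NILDOG6 replicate 2 (2.61, adjusted p = 0.0861) or replicate 3 (2.65, 0.0805). AT1G03890, of the cruciferin seed storage list, had 7.77, 9.80 and 10.11 in NILDOG6 and 7.74, 8.80, 7.58, 7.46 and 7.98 in Ler, and rose by 2.04 ± 0.32 without replicate 1 (adjusted p = 0.00109). With 3 arrays its difference of 1.31 did not pass (limma adjusted p = 0.0856).

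**Figure D2:**
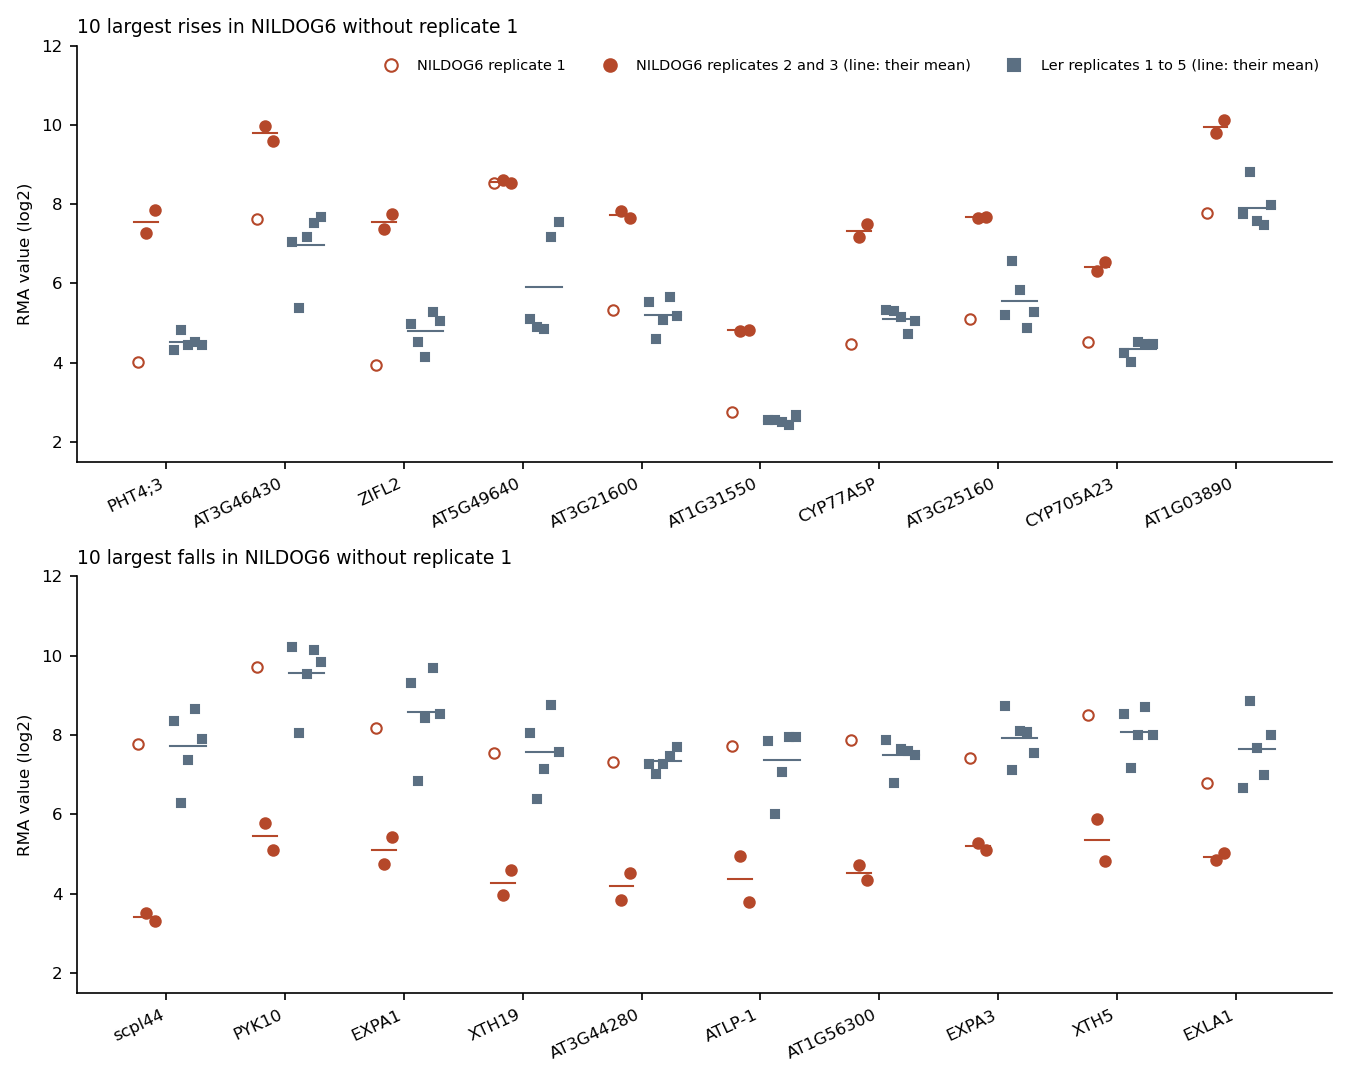
Log2 RMA values of the 10 genes with the largest rise (top) and the 10 with the largest fall (bottom) in NILDOG6 without replicate 1, with NILDOG6 left (red circles, replicate 1 open) of Ler (grey squares) and lines at the means of NILDOG6 replicates 2 and 3 and of the 5 Ler arrays. The open circle lies with the Ler values in most genes, and AT5G49640, where NILDOG6 has 8.53, 8.60 and 8.52, is the clearest exception.

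Of the 10 largest falls, 3 lie on chromosome 3. scpl44, a serine carboxypeptidase-like gene, had 7.77, 3.50 and 3.31 in NILDOG6, against 8.35, 6.29, 7.37, 8.66 and 7.91 in Ler. PYK10, the beta-glucosidase of the endoplasmic reticulum bodies, had 9.72, 5.79 and 5.11, against 10.21, 8.05, 9.54, 10.15 and 9.85. In both genes replicates 2 and 3 were below every Ler array, replicate 1 was within the Ler range, and Ler replicate 2 was the lowest of its group. Without replicate 1 scpl44 fell by 4.31 ± 0.84 (limma adjusted p = 0.00439) and PYK10 by 4.11 ± 0.59 (0.000504), whereas with 3 arrays the differences of -2.86 and -2.69 did not pass (0.100 and 0.0661). The expansin genes EXPA1 and EXPA3 and the XTH genes XTH19 and XTH5, which act in cell wall loosening, are described with their families below. ATLP-1, a thaumatin-like protein gene, had 7.72, 4.96 and 3.79 in NILDOG6, against 7.84, 6.0, 7.07, 7.96 and 7.96 in Ler, and fell by 2.99 ± 0.54 without replicate 1 (adjusted p = 0.00281). With 3 arrays ATLP-1 did not pass (limma adjusted p = 0.12).

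AT3G44280, the locus next in number to ANAC060, had 7.32, 3.85 and 4.51 in NILDOG6, against 7.27, 7.01, 7.27, 7.46 and 7.70 in Ler. Replicates 2 and 3 were below all Ler arrays and replicate 1 was among them. It was called with 3 arrays (-2.12 ± 0.46, limma adjusted p = 0.0236) and without replicate 1 (-3.17 ± 0.21, 6.19e-08). AT1G56300 had 7.88, 4.71 and 4.34 in NILDOG6 and 7.88, 6.79, 7.65, 7.61 and 7.50 in Ler, a fall of 2.96 ± 0.24 without replicate 1. Its difference of -1.84 with 3 arrays did not pass (limma adjusted p = 0.0541). EXLA1, an expansin-like gene of chromosome 3, had 6.80, 4.84 and 5.02, against 6.67, 8.87, 7.67, 6.99 and 7.99, and was called with 3 arrays (-2.08 ± 0.49) and without replicate 1 (-2.71 ± 0.49). With 3 arrays, AT3G44280 lost its call without Ler replicate 1 or 3 (-2.14 in each case) and EXLA1 without Ler replicate 3 (-2.08). All 20 of these rises and falls kept their call without replicate 1 when any single Ler array was also left out. With a single NILDOG6 array left, 4 of them lost it: AT5G49640 (2.61 with replicate 3 alone and 2.69 with replicate 2 alone), and, with replicate 2 alone, scpl44 (-4.21), ATLP-1 (-2.40) and XTH5 (-2.18).

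Among genes called with all 3 arrays whose NILDOG6 and Ler arrays did not overlap, the 5 largest rises were of AT5G49640, AT1G31550 and CYP705A23 (above), ATMG01290 and AT3G27610. Replicate 1 lay near the Ler mean in AT1G31550, CYP705A23 and AT3G27610, at positions of 0.096, 0.090 and 0.122. ATMG01290, of the mitochondrial genome, had 5.11, 5.41 and 5.85 in NILDOG6 and 3.72, 3.58, 3.89, 4.44 and 4.10 in Ler. Replicate 1 lay with its group here, and the difference was 1.51 ± 0.22 with 3 arrays (limma adjusted p = 0.00475). The 5 largest falls were of CP1, AT3G19200, CYP81F4, CYP79B2 and AT3G09440. CYP79B2, which makes the first step from tryptophan towards indole glucosinolates, had 5.02, 3.84 and 4.86 in NILDOG6 and 6.79, 5.41, 5.86, 6.96 and 6.43 in Ler. CYP81F4, which modifies the indole ring of these compounds, had 4.88, 4.54 and 3.69, against 6.68, 5.19, 6.23, 6.78 and 6.29. In both genes each NILDOG6 array was below each Ler array, and the differences were -1.72 ± 0.36 and -1.86 ± 0.35 with 3 arrays. CP1 (AT4G36880), a cysteine protease gene, fell by 1.98 ± 0.49 and AT3G19200 by 1.87 ± 0.28. CYP79B2 lost its call without Ler replicate 1 (-1.59), and CP1 without Ler replicate 1 (-1.79), 3 (-2.06) or 4 (-1.73). Of the 23 genes named by rule and called with 3 arrays, 10 kept the call whichever Ler array was left out, and 20 lost it without NILDOG6 replicate 2 or 3. Without replicate 1, 45 of 61 kept the call whichever Ler array was left out, and 35 lost it when a single NILDOG6 array was left.

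Alpha-expansins loosen the cell wall as embryo cells enlarge. Of 18 measured members, 9 fell and 1 rose without replicate 1, where 8.39% of all genes were called. With 3 arrays 3 fell and 1 rose, where 2.36% were called. The median difference of the list was -0.56 without replicate 1 and -0.35 with it, against 0.011 and 0.010 over all genes. EXPA1 had 8.18, 4.75 and 5.44 in NILDOG6, against 9.32, 6.85, 8.44, 9.70 and 8.54 in Ler. EXPA3 had 7.42, 5.27 and 5.11, against 8.73, 7.12, 8.11, 8.08 and 7.54, and EXPA9 had 6.62, 5.03 and 4.15, against 7.83, 6.04, 7.16, 7.55 and 6.77. In all 3 genes, replicates 2 and 3 lay below every Ler array, and replicate 1 lay within the Ler range, low in it. Without replicate 1, EXPA1 fell by 3.48 ± 0.58 (limma adjusted p = 0.00177), EXPA3 by 2.73 ± 0.35 (0.000211) and EXPA9 by 2.48 ± 0.41 (0.00164). With 3 arrays EXPA3 and EXPA9 passed and EXPA1 did not (-2.45, limma adjusted p = 0.0526).

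EXPA4 and EXPA7 were the 2 of 18 members in which all 3 NILDOG6 arrays lay outside the Ler range, as they did in 8.09% of all genes. EXPA4 had 4.73, 4.29 and 3.88 in NILDOG6, against 6.37, 5.37, 6.56, 5.73 and 5.41 in Ler, and fell with 3 arrays (-1.59 ± 0.26, limma adjusted p = 0.00708) as well as without replicate 1 (-1.81 ± 0.28, 0.001). EXPA8, EXPA10 and EXPA15 fell by 1.76, 1.80 and 1.33 without replicate 1, and EXPA13 and EXPA14 by 0.63 and 0.50. EXPA7 alone of the 18 rose, with 3.55, 3.71 and 3.79 in NILDOG6 and 3.24, 3.15, 2.94, 3.11 and 3.06 in Ler, levels near the bottom of the range. EXPA2, known from the endosperm of germinating seeds, had 7.92, 5.84 and 6.1, against 9.24, 6.56, 7.73, 9.85 and 7.58; its difference of -2.22 without replicate 1 did not pass (adjusted p = 0.0744). The calls of EXPA10, EXPA13 and EXPA14 without replicate 1 were lost when Ler replicate 1 (-1.58, -0.58 and -0.49) or Ler replicate 4 (-1.59, -0.58 and -0.45) was left out too, and those of EXPA13 and EXPA14 without Ler replicate 5 (-0.62 and -0.48). With 3 arrays the EXPA3 call was lost without Ler replicate 1 (-1.78) or 3 (-1.93), that of EXPA9 without Ler replicate 1 (-1.61), 3 (-1.78) or 4 (-1.68), and that of EXPA7 without Ler replicate 3 (0.54). Without Ler replicate 1 the list had 6 falls and 1 rise, and without Ler replicate 2 it had 10 and 1. Falls and rises over all genes numbered 764 and 393, and 1744 and 1038, in these settings. With 3 arrays the list had 1 fall and 1 rise without Ler replicate 1, where 88 of all genes fell and 48 rose. These list counts with an array left out were added after the data were seen. In whole seeds, fewer cells of a type and less RNA per cell cannot be told apart.

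**Figure D3:**
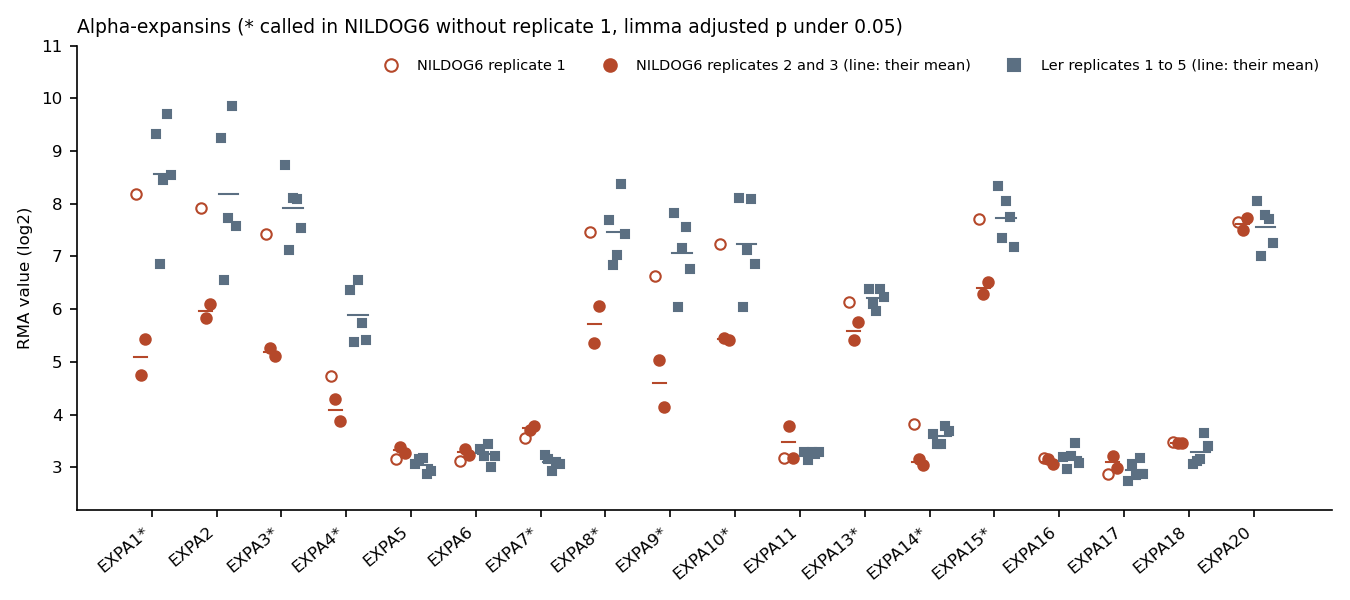
Log2 RMA values of the 18 alpha-expansins, with NILDOG6 left (red circles, replicate 1 open) of Ler (grey squares), lines at the means of NILDOG6 replicates 2 and 3 and of the 5 Ler arrays, and an asterisk where the gene was called without replicate 1. The 9 members that fell have Ler means above those of NILDOG6 replicates 2 and 3, and EXPA7 has all 3 NILDOG6 arrays, at 3.55, 3.71 and 3.79, above Ler.

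The XTH family, which cuts and rejoins xyloglucan chains of the wall, was split. Of 33 measured members, 5 fell and none rose without replicate 1, where 5.34% of all genes fell, and none was called with 3 arrays. The median difference was 0.029 without replicate 1, changed sign to -0.028 after quantile normalization, and so gives the family no direction. XTH19 had 7.55, 3.96 and 4.60 in NILDOG6, against 8.04, 6.38, 7.14, 8.75 and 7.56 in Ler, and XTH5 had 8.50, 5.89 and 4.82, against 8.52, 7.17, 7.99, 8.70 and 7.99. Replicates 2 and 3 were below all Ler arrays in both, and replicate 1 was within the Ler range. Without replicate 1 they fell by 3.29 ± 0.59 (limma adjusted p = 0.0025) and 2.72 ± 0.46 (0.00176). XTH15 fell by 2.03, XTH9 fell by 1.92 and XTH16 fell by 1.41.

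Of 27 genes of abscisic acid signalling, 3 were called without replicate 1 and 2 with all arrays, where 8.39% and 2.36% of all genes were called. HAI3, a clade A protein phosphatase that switches the hormone's signal off, had 9.04, 6.45 and 6.68 in NILDOG6, against 8.75, 9.25, 9.01, 8.41 and 8.55 in Ler. Replicates 2 and 3 were below all Ler arrays by over 1, and replicate 1 was among them. HAI3 fell by 2.23 ± 0.22 without replicate 1 (limma adjusted p = 1e-05), and its difference of -1.41 ± 0.38 with 3 arrays did not pass (0.0556). AFP3, one of the proteins that bind the transcription factor ABI5 and dampen its action, had 7.12, 8.09 and 8.01 in NILDOG6, against 6.54, 6.52, 6.96, 6.66 and 6.65 in Ler. Here all 3 NILDOG6 arrays were above Ler, with replicate 1 the nearest, and AFP3 rose by 1.07 ± 0.18 with 3 arrays (adjusted p = 0.00775) and by 1.39 ± 0.15 without replicate 1 (1.94e-05). AFP3 lies on chromosome 3 and HAI3 on chromosome 2.

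ABI4, a transcription factor of the abscisic acid and sugar responses of seeds, had 7.44, 7.11 and 6.67 in NILDOG6, against 8.91, 8.09, 8.44, 8.0 and 7.57 in Ler. All 3 NILDOG6 arrays were below Ler, replicate 1 by a small margin, and ABI4 fell both with 3 arrays (-1.13 ± 0.25, limma adjusted p = 0.0287) and without replicate 1 (-1.31 ± 0.28, 0.00863). The call with 3 arrays was lost without Ler replicate 1 (-0.95, adjusted p = 0.0602) or Ler replicate 3 (-1.07, 0.0701). Without NILDOG6 replicate 1, the list had 4 rises and 3 falls when Ler replicate 2 was left out too, and 3 rises and 2 falls after centring. Rises and falls over all genes numbered 1038 and 1744, and 1588 and 773, in these settings. None of the 13 genes that make or break down abscisic acid passed in either comparison.

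In the gibberellin pathway 2 DELLA repressors fell without replicate 1, GAI and RGL2, and GAI alone fell with 3 arrays. They were the only called genes of 9 in gibberellin signalling, where 5.34% and 1.4% of all genes fell. GAI had 9.12, 8.87 and 9.12 in NILDOG6, against 10.06, 9.87, 10, 9.37 and 9.34 in Ler. All 3 NILDOG6 arrays were below Ler, and Ler replicates 4 and 5 were the lowest of their group. RGL2, the DELLA protein with the main part in seed germination, had 9.80, 8.65 and 8.57, against 10.03, 9.27, 9.77, 9.87 and 9.96, with replicate 1 among the Ler arrays. GAI fell by 0.73 ± 0.21 without replicate 1 (limma adjusted p = 0.0356) and 0.69 ± 0.18 with 3 arrays (0.0452), and RGL2 by 1.17 ± 0.19 without replicate 1 (0.00117). The GAI call was lost without Ler replicate 1 (-0.65 without NILDOG6 replicate 1 and -0.61 with it) and without Ler replicate 3 (-0.67 and -0.62), and, with 3 NILDOG6 arrays, without Ler replicate 2 (-0.66). The other DELLA genes did not pass, RGA at -0.40 without replicate 1. The gibberellin signalling list of 9 genes had a median difference of -0.40, and none of the 19 genes of gibberellin metabolism passed. GA3OX2, which makes active gibberellin, had 4.54, 4.04 and 4.18 in NILDOG6 and 5.05, 4.44, 4.28, 5.41 and 5.16 in Ler (-0.76 without replicate 1, adjusted p = 0.103).

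DOG1, the main dormancy gene of Arabidopsis, did not differ detectably. It had 3.76, 4.03 and 3.93 in NILDOG6 and 3.76, 4.43, 4.12, 3.89 and 3.64 in Ler, levels in the low part of the range, with a difference of -0.06 ± 0.23 with 3 arrays (limma adjusted p = 0.919) and 0.01 ± 0.27 without replicate 1 (0.985). Of 19 measured dormancy regulators, 2 rose and 1 fell without replicate 1, where 8.39% of all genes were called, and none was called with 3 arrays. PIL5, a phytochrome-interacting factor that represses germination in the dark, had 8.81, 7.77 and 7.99 in NILDOG6, against 8.75, 8.42, 8.46, 8.51 and 8.58 in Ler, and fell by 0.66 ± 0.12 without replicate 1 (adjusted p = 0.00294). PIF6, of the same family, had 8.10, 8.53 and 8.83, against 7.58, 8.19, 7.61, 7.98 and 7.94, and rose by 0.82 ± 0.19 (0.0141). FLC, the flowering repressor, had 7.03, 8.74 and 8.57, against 7.51, 8.17, 8.02, 8.06 and 8.01, and its rise of 0.70 ± 0.19 was lost without Ler replicate 1 (0.59, adjusted p = 0.0552). Replicate 1 lay on the far side of Ler for PIL5 and FLC, above all its arrays for PIL5 and below them all for FLC.

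Of 30 measured LEA genes, whose transcripts mark the maturing and dry seed, 4 rose and none fell without replicate 1, and 1 rose with 3 arrays, where 3.05% and 0.952% of all genes rose. The median difference of the list was 0.20, with 24 members above 0. M17 had 12.36, 12.85 and 12.91 in NILDOG6, against 11.80, 12.22, 11.69, 11.85 and 11.79 in Ler. Every NILDOG6 array was above every Ler array, and M17 rose by 0.84 ± 0.15 with 3 arrays (limma adjusted p = 0.00972) and by 1.01 ± 0.15 without replicate 1 (0.000701). AT2G42560, AT1G22600 and EM1, a highly abundant LEA transcript of dry seeds, rose by 1.01, 0.66 and 0.64 without replicate 1, though EM1 overlapped Ler, with 12.15, 12.94 and 13.20 against 12.31, 12.96, 12.07, 12.32 and 12.48. The EM1 call was lost without any of Ler replicates 1, 3, 4 and 5 (0.55 to 0.65), and that of AT1G22600 without Ler replicate 1 (0.61). Without Ler replicate 1 the LEA list had 2 rises, and without Ler replicate 2 it had 8 rises and 1 fall. Centring gave 7 rises. Rises over all genes numbered 393, 1038 and 1588 in these settings, against 650 with NILDOG6 replicate 1 alone left out.

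Among 17 storage and oil body genes only AT1G03890 was called, without replicate 1, where 8.39% of all genes were called. The 15 measured heat shock genes had a median difference of 0.63 without replicate 1 and none was called. HSP101, a chaperone that dissolves protein aggregates, had 8.24, 10.14 and 10.11 in NILDOG6 and 7.92, 10.65, 8.74, 8.25 and 9.01 in Ler. Ler replicate 2 was the highest of all, and without it and NILDOG6 replicate 1, 4 heat shock genes rose. In that setting 1038 of all genes rose, against 650 with Ler replicate 2 kept. Of 7 genes of raffinose family sugars, DIN10, a sugar-starvation-induced gene, fell without replicate 1 (-2.29 ± 0.63, limma adjusted p = 0.0313), where 5.34% of all genes fell. The DIN10 call was lost without Ler replicate 1 (-2.15) or Ler replicate 4 (-2.09). With 3 arrays DIN10 did not pass (-1.42, limma adjusted p = 0.243). None of 16 genes of oil breakdown and the glyoxylate cycle was called in either comparison.

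The study's D-up genes were chosen as higher in dormant than in after-ripened seeds, on arrays that include these, so they are no independent evidence. Of 46 D-up genes, 4 rose and none fell without replicate 1, and 1 rose with 3 arrays, where 3.05% and 0.952% of all genes rose. The median difference was 0.31, and 42 members were above 0, 10 of them with replicates 2 and 3 above every Ler array, as were 11.4% of all genes. The 4 were PIF6, AT2G19320 (0.83), NADP-ME1 (0.74), a cytosolic malic enzyme gene, and AT1G13640 (0.45). AT1G13640 was called with 3 arrays too, with 9.13, 9.26 and 9.29 in NILDOG6, against 8.75, 9.02, 8.70, 8.77 and 8.89 in Ler, all NILDOG6 arrays above Ler. Its call was lost without Ler replicate 1, 3 or 4 in both comparisons (0.37 to 0.43) and, with 3 arrays, without Ler replicate 5 (0.42), and that of AT2G19320 without Ler replicate 1 (0.68) or 4 (0.80). The count was 11 without Ler replicate 2, 2 without Ler replicate 1, 9 after centring and 8 after quantile normalization. Rises over all genes numbered 1038, 393, 1588 and 892 in these settings, against 650 with NILDOG6 replicate 1 alone left out.

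ASG5, LCAT3, HSFA1E, SSADH1, FBA2 and ADS1, which the study names, did not pass in either comparison. ASG5 and LCAT3 had all 3 NILDOG6 arrays above Ler, by 0.34 and 0.41, and did not pass (adjusted p = 0.220 and 0.262). HSFA1E, SSADH1, FBA2 and ADS1 differed by -0.01, 0.12, -0.46 and -0.23 with 3 arrays.

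**Figure D4:**
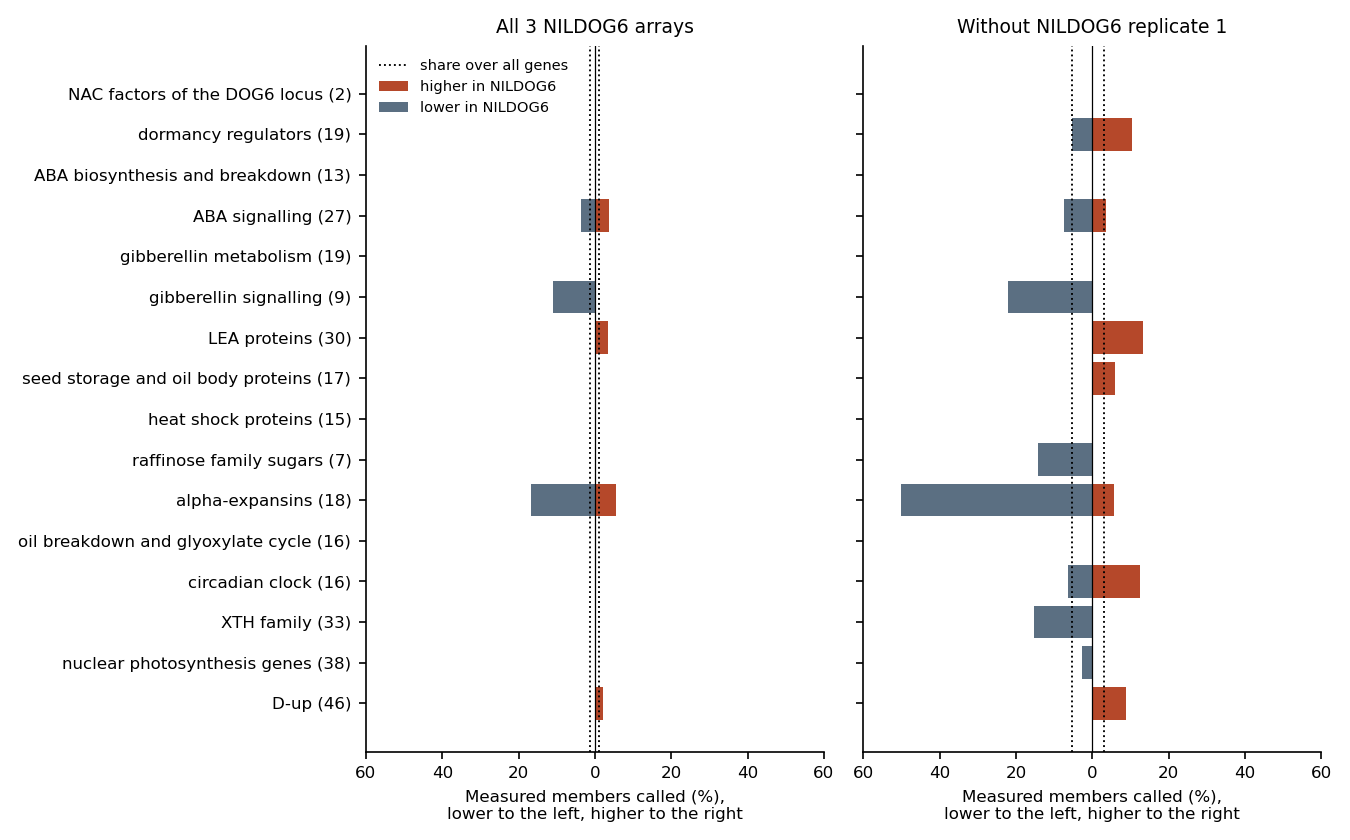
Share of the measured members of each gene list shown (numbers in brackets) that were called higher (red, to the right) or lower (grey, to the left) in NILDOG6 than in Ler, with all 3 NILDOG6 arrays (left panel) and without replicate 1 (right panel), and dotted lines at the shares over all genes in each direction. The bar for alpha-expansins reaches furthest to the left in both panels, with 3 and 9 of 18 members lower.

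Of 16 measured clock genes, 2 rose and 1 fell without replicate 1, beside 8.39% of all genes called. None was called with 3 arrays, with limma adjusted p of 0.0824 for ELF4, 0.0909 for ELF3 and 0.0575 for PRR7. ELF4, of the evening complex, had 9.07, 8.06 and 7.73 in NILDOG6, against 9.12, 8.73, 9.04, 9.04 and 9.02 in Ler, and fell by 1.1 ± 0.17 (limma adjusted p = 0.000951). Replicate 1 lay among the Ler arrays. ELF3, its partner, and PRR7, a repressor of the morning genes, rose by 0.59 ± 0.18 and 0.74 ± 0.23, with all 3 NILDOG6 arrays above Ler in both genes. Those calls were lost without Ler replicate 1, 3 or 4, with ELF3 at 0.53 to 0.58 and PRR7 at 0.65 to 0.70. Of 38 nuclear photosynthesis genes, PSBX alone was called without replicate 1, where 8.39% of all genes were. PSBX was lower by 1.4 ± 0.41 (adjusted p = 0.043), and did not pass with 3 arrays (-0.93, limma adjusted p = 0.215). The call was lost after quantile normalization or without Ler replicate 1 (-1.23), 3 (-1.41), 4 (-1.29) or 5 (-1.36).

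The chromosome of the introgression held the highest share of called genes. Without replicate 1, 10.4% of the 4228 genes on chromosome 3 were called, against 8.10%, 8.07%, 7.52% and 7.82% on chromosomes 1, 2, 4 and 5. For calls with a difference of more than 1 the shares were 3.12% on chromosome 3 and 1.85% to 2.33% on the others. With 3 arrays, 2.93% of the genes of chromosome 3 were called and 2.1% to 2.37% of those of the other chromosomes. In windows of 200 measured genes in gene order, the densest was AT3G21640 to AT3G24110, with 31 called genes (15.5%), 14 of them differing by more than 1. The window from AT3G42540 to AT3G45500, which spans the DOG6 locus, had 26 called genes, 13 of them by more than 1. The 84 windows of the other chromosomes had between 3.5% and 14% of genes called, with a median of 8%, and at most 5% by more than 1, against up to 7% on chromosome 3. Because replicate 1 was left out for its values on chromosome 3, the shares without it are a description and no test of the position was made. Whether the signals on chromosome 3 differ through transcript level or through the Kas-2 sequence under the probes was not tested.

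**Figure D5:**
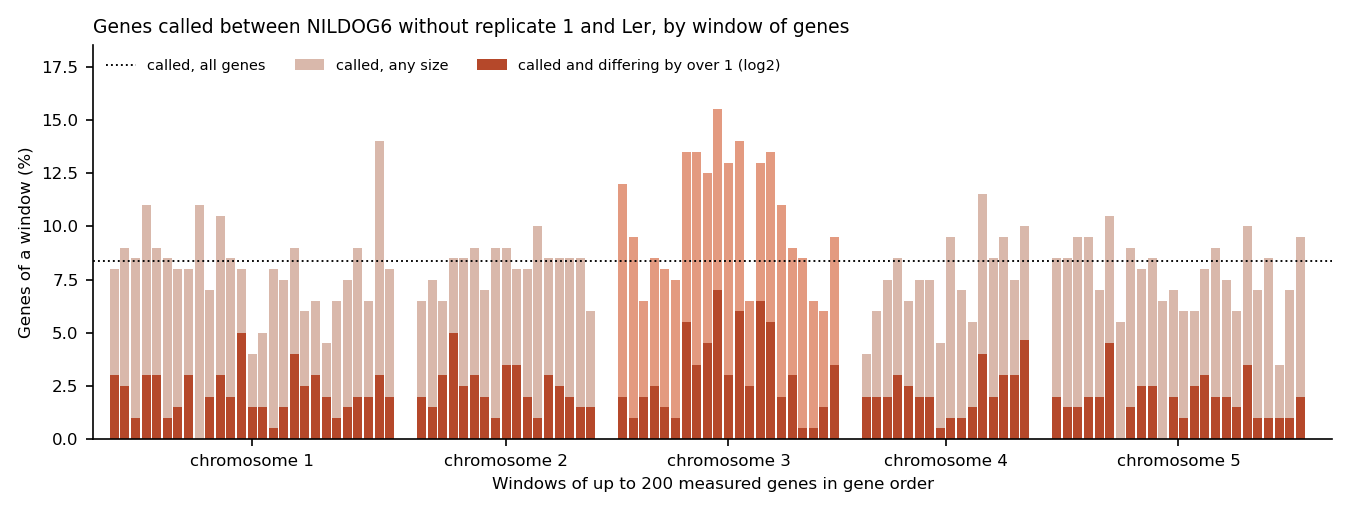
Percent of genes called between NILDOG6 without replicate 1 and Ler in windows of up to 200 measured genes along each chromosome, with all calls in the light bars, calls differing by more than 1 (log2) in the dark bars and a dotted line at 8.39%, the share over all genes. The windows of the middle of chromosome 3 include the highest bar of both kinds, with 15.5% and 7%.

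To see which differences set NILDOG6 apart from the other lines too, it was compared with the mean of NILDOG1, NILDOG2 and NILDOG3. These comparisons share the NILDOG6 arrays with those above and no Ler array. With 3 arrays 365 genes were called (1.71%), 157 higher (0.737%) and 208 lower (0.976%), and without replicate 1 there were 703 (3.3%), 295 higher (1.38%) and 408 lower (1.91%). By chromosome the shares without replicate 1 were 4.94% on chromosome 3 and 2.25% to 3.07% on the others. Of the 73 genes higher than in Ler by more than 1, 61 were also higher than in the other lines, and of the 419 lower by more than 1, 145 were also lower.

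Several of the genes described above also differed from the other lines. PHT4;3 averaged 7.56 ± 0.40 in NILDOG6 without replicate 1 (SD, n = 2), 4.42 ± 0.44 in NILDOG1 (n = 5), 4.44 ± 0.52 in NILDOG2 and 5.00 ± 0.14 in NILDOG3 (n = 3 each). AT3G44280 averaged 4.18 ± 0.47, against 7.41 ± 0.31, 7.42 ± 0.13 and 7.58 ± 0.14. HAI3 averaged 6.56 ± 0.17, against 9.08 ± 0.31, 8.88 ± 0.14 and 9.03 ± 0.23. NILDOG6 without replicate 1 differed from the mean of the other lines in these genes by 2.94 ± 0.24, -3.29 ± 0.19 and -2.43 ± 0.20 (limma adjusted p = 9.71e-07, 1.49e-08 and 8.93e-07). AFP3 (1.4 ± 0.14), AT1G31550 (2.02 ± 0.13), AT1G56300 (-2.69 ± 0.22), EXLA1 (-2.94 ± 0.45), ELF4 (-1.0 ± 0.16), PIL5 (-0.79 ± 0.11) and RGL2 (-0.84 ± 0.17) also passed without replicate 1. With 3 arrays AT3G44280, HAI3, AFP3, AT1G31550 and EXLA1 passed as well. PHT4;3, AT1G56300, PIL5, ELF4 and RGL2 did not (limma adjusted p = 0.0656, 0.0762, 0.0988, 0.118 and 0.296). FLC differed more from the mean of the other lines (1.97 ± 0.17) than from Ler. It had 8.65 ± 0.12 in NILDOG6 without replicate 1 and 8.47 ± 0.30, 4.97 ± 0.17 and 6.59 ± 0.12 in NILDOG1, NILDOG2 and NILDOG3. NILDOG1 was thus near NILDOG6, and the difference came from NILDOG2 and NILDOG3. FLC passed with 3 arrays as well (1.43, limma adjusted p = 0.00631).

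EXPA1 and scpl44 showed another order of the lines. EXPA1 averaged 5.09 ± 0.49 in NILDOG6 without replicate 1 (SD, n = 2), against 6.82 ± 0.89 in NILDOG1, 8.93 ± 0.53 in NILDOG2 and 4.28 ± 0.33 in NILDOG3. scpl44 averaged 3.41 ± 0.14, against 4.83 ± 1.84, 7.71 ± 0.67 and 3.89 ± 0.62. The Ler means were 8.57 ± 1.1 for EXPA1 and 7.72 ± 0.94 for scpl44 (n = 5). NILDOG3 was thus low, as NILDOG6 was, NILDOG1 lay between, and NILDOG2 was near the Ler means. Whether this order follows the dormancy of the lines was not tested. The expansin-like gene EXLA1 did not follow this order, with 4.93 in NILDOG6 and 7.80, 7.10 and 8.74 in NILDOG1, NILDOG2 and NILDOG3. Neither gene passed the test against the other lines (-1.58, limma adjusted p = 0.116, and -2.07, 0.152). Over all genes 3.3% passed this test without replicate 1. Of the 18 alpha-expansins EXPA4 alone passed (-1.25 ± 0.26, 0.012), of the XTH genes XTH19 alone (-1.99 ± 0.54, 0.049), and none of the D-up genes. XTH19 averaged 4.28 ± 0.45 in NILDOG6 without replicate 1, 5.47 ± 1.05 in NILDOG1, 8.79 ± 0.57 in NILDOG2 and 4.56 ± 0.53 in NILDOG3. NILDOG3 was thus close to NILDOG6. With 3 arrays EXPA4 passed (limma adjusted p = 0.0258) and XTH19 did not (0.521). Without replicate 1 PYK10 passed (-2.37 ± 0.55, 0.0214), with means of 7.45 ± 1.14, 9.96 ± 0.40 and 6.03 ± 0.39 in NILDOG1, NILDOG2 and NILDOG3, and in the LEA list 2 genes passed, M17 among them (0.55 ± 0.14, 0.0348). PYK10 and M17 did not pass with 3 arrays (limma adjusted p = 0.571 and 0.154).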

How the data were processed

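RNA of 19 ATH1 GeneChips of dormant imbibed seeds was analysed (NILDOG6, 3; Ler, 5; NILDOG1, 5; NILDOG2, 3; NILDOG3, 3), grouped by the sample titles. The log2 values, 1 per AGI locus, were deposited by the authors after RMA, which corrects background, normalizes between arrays and summarises probes; the probe annotation is not given in the sources used here. Values ran from 1.92 to 14.61, and the number of arrays limits the precision. Whether replicates stem from separate plants rests on the labels alone, and p-values measure the spread between these samples.

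Genotype means were fitted with limma 3.58.1 (lmFit, eBayes, R 4.3.3) to all 19 arrays, without a filter or covariates, and a gene counted as called where its p, adjusted over all 21313 genes (Benjamini-Hochberg), was under 0.05. The fit without NILDOG6 replicate 1 used 18 arrays. Figures and summaries were made with Python 3.11.15, numpy 2.4.6 and pandas 2.3.3. On simulated data with 200 genes of 21313 changed by 1 on the log2 scale, 91% were recovered with 3 NILDOG6 arrays and 73.5% with 2. For changes of 2 the shares were 99.5% and 99%.

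The members, gene lists and tests were chosen with earlier results of these data known. Genes were named by rule: the 10 largest rises and falls without replicate 1, the 5 largest with 3 arrays among genes whose arrays did not overlap, DOG1, called list members and the genes the study names. EXPA2, RGA, NTL8, ANAC089 and HSP101 were added after their values were seen. Symbols and gene order were taken from RefSeq's gene table (assembly TAIR10.1), which held 21205 of the loci (99.5%). Ribosomal protein and proteasome lists could not be formed from that table and were left out. The result of 1 further gene list is not reported here. After-ripened seeds were not analysed here, and the build behind the probe sets is not given, so no coordinates are printed. Alternatives were other thresholds, a filter at the 30th percentile of mean level, centring, quantile normalization, a prior trend, array weights, the compared groups alone, a replicate block, subsets of replicates and leaving out each array.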

Additional observations from a re-analysis of the deposited data

Results flagged for a closer look

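Dixon's test was run on the 5 Ler arrays of each of the 69 named genes, and 3 genes had an array far from the others. Chance flags about 1 in 20 groups. In AT3G46430, Ler replicate 2 had 5.37 where the other Ler arrays had 7.05 to 7.68. In FLC (AT5G10140), Ler replicate 1 had 7.51 and the others 8.01 to 8.17. In ELF4 (AT2G40080), Ler replicate 2 had 8.73 and the others 9.02 to 9.12.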

How the results depend on the processing

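With 3 NILDOG6 arrays, the 502 calls against Ler numbered 43 at an adjusted p under 0.01 and 0 at 0.0001 (limma; before adjustment 4011 genes had p under 0.05), 816 after centring, 1231 with a replicate block, 786 from replicates 1 to 3 of every genotype, 28 with Ler replicates 4 and 5 as the only Ler arrays and 5 from the compared groups alone. Leaving out 1 array gave 41 to 1789 calls: 136, 961, 141 and 267 without Ler replicates 1, 2, 3 and 4, and 1789, 41 and 61 without NILDOG6 replicates 1, 2 and 3. Without replicate 1, the 1789 calls numbered 516 at 0.01, 21 at 0.0001 and 516 from the compared groups alone, and 507 to 2782 with 1 more array left out: 1157 and 2782 without Ler replicates 1 and 2, and 706 and 507 without NILDOG6 replicates 2 and 3. The block gave 1919. Against the other lines, the 365 calls numbered 67 at 0.01, 1 at 0.0001 and 725 with the block, and 74 to 703 with 1 array left out: 219 without NILDOG2 replicate 2, 236 without NILDOG3 replicate 3, and 703, 74 and 141 without NILDOG6 replicates 1, 2 and 3. The cause of these shifts was not tested. Arrays of the same number correlated in their deviations between NILDOG6 and Ler at 0.45, 0.28 and -0.23, and NILDOG6 replicates 1, 2 and 3 correlated best with Ler replicates 1, 2 and 2, so the data do not show that the numbers pair the arrays.

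For the named genes with each setting, 1859 values kept direction and call, 290 lost the call, 98 gained it and 24 changed sign. With 1 array left out, the differences with 3 NILDOG6 arrays ranged from -0.145 to 0.052 for DOG1, -0.101 to 0.140 for HSFA1E, -0.016 to 0.211 for SSADH1 and -0.155 to 0.699 for FLC, and without replicate 1 from -0.070 to 0.128 for DOG1. DOG1 with 3 arrays turned to 0.045 (centred), 0.009 (array weights), 0.139 (Ler replicates 4 and 5 only), 0.052 (without Ler replicate 2) and 0.012 (without NILDOG6 replicate 1). Without replicate 1, DOG1 turned to -0.256 (block), -0.123 (replicates 1 to 3), -0.041, -0.007 and -0.070 (without Ler replicates 1, 4 and 5) and -0.039 (without NILDOG6 replicate 2). HSFA1E with 3 arrays turned to 0.097 (centred), 0.047 (quantile), 0.065 (array weights), 0.123 (Ler replicates 4 and 5 only), 0.068 and 0.020 (without Ler replicates 2 and 3) and 0.140 (without NILDOG6 replicate 1), and without replicate 1 to -0.031 (block). SSADH1 with 3 arrays turned to -0.005 (block), -0.032 (replicates 1 to 3) and -0.016 (without NILDOG6 replicate 3), and FLC to -0.155 and -0.068 (without NILDOG6 replicates 2 and 3). In simulated data, where all NILDOG6 arrays shared the change, a difference of 1 was found less often with 2 NILDOG6 arrays than with 3. The real arrays did not share their differences in this way. Low levels limit genes such as DOG1 and EXPA7.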

Other observations

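Further groups of genes held many falls in NILDOG6 against Ler, several of which NILDOG3 shared. They were put together after their values were seen, so their counts are descriptions and support nothing. Over all genes, 5.34% were lower without replicate 1 and 1.4% with 3 arrays. Of 16 genes of indole glucosinolate synthesis, 11 were lower without replicate 1 and 4 with 3 arrays, with a median difference of -1.24 and -0.93, and none was higher. The 11 span the pathway, from CYP79B2 and CYP83B1 (-2.22 ± 0.55), which make and use indole acetaldoxime, through GGP1, SUR1 and UGT74B1 to the sulfotransferase SOT16 (-2.24 ± 0.44) and the kinases APK1 and APK2, which supply its sulfate donor. APK1 had 7.85, 7.31 and 6.88 in NILDOG6, against 8.92, 7.97, 8.84, 8.81 and 8.28 in Ler. All 3 NILDOG6 arrays were below Ler, and APK1 fell with 3 arrays (-1.22 ± 0.20, limma adjusted p = 0.00857) as well as without replicate 1 (-1.47 ± 0.21, 0.000422). The regulator MYB34 had 6.3, 4.57 and 4.59, against 6.75, 4.17, 6.58, 7.07 and 6.07, and did not pass. APK1 was the only gene of the group that also passed against the other lines without replicate 1 (-0.81 ± 0.19, adjusted p = 0.0241). After quantile normalization or centring 9 were lower without replicate 1. Of all genes, 873 and 773 were lower in these settings, against 1139 as deposited.

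All 3 ER body genes (PYK10, NAI1 and NAI2) were lower without replicate 1, and NAI2, needed to form these bodies, fell with 3 arrays as well (-2.01 ± 0.51, limma adjusted p = 0.041). Of 11 measured tubulins 6 were lower without replicate 1, among them TUA4 (-2.38 ± 0.38) and TUB4 (-0.91 ± 0.13), and TUB4 alone was called with 3 arrays. Of 7 measured genes of DNA replication (PCNA and MCM proteins) 5 were lower without replicate 1 and MCM2 alone with 3 arrays, where it had 4.26, 4.31 and 3.96 in NILDOG6 and 5.63, 4.71, 5.06, 5.51 and 4.97 in Ler. PCNA1 fell by 1.59 ± 0.30 without replicate 1 (adjusted p = 0.00395).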
